A study of Homo sapiens with 6 samples.

Results

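The chromosome 9q21-q22 segment was defined as every gene whose start lies on human chromosome 9 from 85 to 100 Mb (GRCh37), whatever its type. It held 272 of the 57820 genes in the count table. The interval was selected on measured values of the same knockout contrast described here, so the fold changes of its genes are given as a description and are not tested as a group. 1 gene of the interval was left out by the rule and is not reported. RNA-seq libraries were made from an established line of human bladder cancer cells, J82, grown in DMEM with 10% FBS. The libraries fell into 2 groups of 3: cells carrying the lentiCRISPRv2 vector as control, and cells in which the same lentiviral CRISPR/Cas9 system carried a guide against FOXC1, a forkhead transcription factor. Cells were selected with puromycin, and the methods speak of knockout clones verified by Western blot. How many clones stood behind the 3 libraries labelled FOXC1 KO, and whether the 3 libraries of a group came from separate cultures, is not given in the sources used here, so spread between libraries may be technical.

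The long arm of chromosome 9 is one of the arms most often lost in bladder cancer, and the hedgehog receptor gene PTCH1 in band 9q22 is a candidate tumor suppressor there. The segment also carries genes with unrelated jobs: a cell-death kinase (DAPK1), lysosomal proteases (CTSL, CTSV), a gluconeogenic enzyme (FBP1), an abundant RNA-binding protein (HNRNPK), a row of small leucine-rich matrix proteoglycans and a let-7 microRNA cluster. Genes that lie side by side share gene copy number and, in part, large chromatin domains. DNA copy number was not measured in these libraries, and whether it differed between the groups was not tested.

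Upstream sequence was examined because forkhead factors such as FOXC1 bind a core written GTAAACA or GTAAATA. The stretches of 250 bases that end just before a RefSeq transcript start shown here come from 3 genes with low levels in the libraries labelled FOXC1 KO, and from PTCH1, which barely differed. Capitals mark a forkhead core on either strand (TGTTTAC and TATTTAC on the other strand). All are written 5′ to 3′ on the gene's strand, with GRCh37 positions.
FRMD3, internal start, chr9:86082658-86082907, minus strand: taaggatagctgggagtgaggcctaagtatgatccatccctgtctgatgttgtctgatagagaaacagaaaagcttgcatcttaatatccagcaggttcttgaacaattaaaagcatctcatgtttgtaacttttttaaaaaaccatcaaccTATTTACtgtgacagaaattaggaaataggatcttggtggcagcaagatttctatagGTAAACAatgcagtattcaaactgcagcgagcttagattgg
GAS1, chr9:89562422-89562671, minus strand: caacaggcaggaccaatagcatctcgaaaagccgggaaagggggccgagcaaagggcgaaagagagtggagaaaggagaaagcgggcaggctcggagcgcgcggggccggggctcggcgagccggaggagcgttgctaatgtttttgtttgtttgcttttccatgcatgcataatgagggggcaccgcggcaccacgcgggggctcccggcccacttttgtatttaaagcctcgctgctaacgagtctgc
FBP1, chr9:97401801-97402050, minus strand: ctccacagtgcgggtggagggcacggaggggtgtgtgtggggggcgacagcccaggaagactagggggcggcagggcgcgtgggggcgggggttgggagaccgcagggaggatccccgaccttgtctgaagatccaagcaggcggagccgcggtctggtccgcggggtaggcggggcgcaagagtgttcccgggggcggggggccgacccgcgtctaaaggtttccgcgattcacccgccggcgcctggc
PTCH1, internal start, chr9:98269710-98269959, minus strand: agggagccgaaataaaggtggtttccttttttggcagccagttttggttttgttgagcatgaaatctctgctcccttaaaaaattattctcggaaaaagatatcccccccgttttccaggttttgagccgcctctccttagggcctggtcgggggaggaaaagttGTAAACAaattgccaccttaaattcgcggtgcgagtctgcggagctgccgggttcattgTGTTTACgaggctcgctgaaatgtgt
FRMD3 and PTCH1 each held 2 cores in these stretches, and GAS1 and FBP1 held none of either spelling. The FRMD3 and PTCH1 stretches were picked for their cores. From 250 bases before to 50 bases after a start, 3 of the 4 FRMD3 starts and 3 of the 5 PTCH1 starts held no core. A further PTCH1 start held its core not wholly within the 250 bases before it. GAS1 and FBP1 have 1 start each in the RefSeq table.
Over windows of 250 bases before to 50 bases after a start, 7 of 90 promoters of tested segment genes (7.78%) held at least 1 core, against 4.22% of 16276 promoters of all tested genes and 5.97% of the 35116 promoters in the RefSeq table. Of the 28 promoters of segment genes called lower, 2 held a core, those of CTSL and FRMD3. Of the 62 promoters of the other tested segment genes, 5 did, belonging to AUH, NTRK2, PTCH1 and SPTLC1. A match is only a match of letters, and binding was not measured in these libraries. The paper did map FOXC1 binding in J82 cells by ChIP-seq, and reports sites at promoters, at enhancers and outside both. Those sites were not set against the promoters here.

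The let-7 cluster lies inside the segment, in the long RNA MIRLET7A1HG, and its 3 members share the seed GAGGUAG. The mature sequences are shown with bases 2 to 8, the seed, in capitals, because the tested let-7 gene is the only microRNA gene of the segment with enough reads to be compared.
let-7a-5p: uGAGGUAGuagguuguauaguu
let-7f-5p: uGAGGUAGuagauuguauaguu
let-7d-5p: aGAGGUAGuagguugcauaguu
MIRLET7D, at chr9:96941116-96941202 on the plus strand, had 14, 13 and 15 reads in the control libraries and 10, 14 and 19 in the libraries labelled FOXC1 KO. The groups overlapped. Reads over a hairpin in an mRNA library come from longer transcripts and do not measure the mature microRNA. The host RNA MIRLET7A1HG had 17, 26 and 23 reads in the control libraries and 17, 13 and 14 in the libraries labelled FOXC1 KO. Its log2 fold change was -0.47 ± 0.30 (SE), and its groups overlapped. Of the 18 microRNA genes of the segment, 12 had no read in any library.

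Depth ranged from 18408134 to 25350908 counts per library. The targeted gene was not lower in the edited cells: FOXC1 stood at 18.4, 16.9 and 19.3 CPM (counts scaled to a common library size) in the control libraries and at 24.1, 22.2 and 21.1 in the libraries labelled FOXC1 KO, a log2 fold change of 0.30 ± 0.091 (SE, edgeR quasi-likelihood test, Benjamini-Hochberg adjusted p = 0.0127, n = 3 per group). A frame-shifted transcript can keep its level, so this RNA level says nothing of the protein, and group names below are those of the labels. The paper reports less FOXC1 protein in J82 knockout cells by Western blot. Of 13 urothelial and epithelial markers, KRT7, KRT8, KRT18, GATA3, PPARG and EPCAM were detected well enough to test, 7 lay under 1 CPM and the uroplakin UPK3A had no read. Their summed level was 3060 to 3860 CPM in the control libraries and 2420 to 2690 CPM in the libraries labelled FOXC1 KO. Of the 6 tested, 5 were called lower (adjusted p under 0.05 and over 1.3-fold), where 8.39% of all tested genes were. The mesenchymal markers VIM, FN1 and CDH2 summed to 1640 to 1780 CPM and 1640 to 1920 CPM, with none called. VIM was higher by less than the fold cutoff, at 339, 308 and 299 CPM against 401, 380 and 386 CPM. Its log2 fold change was 0.30 ± 0.070 (edgeR adjusted p = 0.00137), and its groups did not overlap. FN1 (0.0084) and CDH2 (-0.11) overlapped between groups. Markers of blood, endothelial and liver cells, of which 5 of 6 were found, summed to at most 1.58 CPM, and CD3E had no read. The part of the epithelial difference in the values below was not tested. In bulk RNA, fewer cells of a type and less RNA per cell cannot be told apart.

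Of the 272 segment genes, 77 had enough reads to be tested: 59 of 76 protein-coding genes, 9 of 66 long non-coding RNAs, 8 of 88 pseudogenes and 1 of 42 small RNA genes. The other 195 were silent or nearly so, with no read in any library for 98 of them and a highest single count of 16 for the rest. Genes tested are those that passed a filter on low counts, and no count over them stands for all members. Reads on the segment made up 0.487, 0.504 and 0.512% of all counts in the control libraries and 0.434, 0.414 and 0.44% in the libraries labelled FOXC1 KO. The 3 control shares all lay above the 3 knockout shares, and HNRNPK alone supplied 24.5% of the segment's reads.

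The tested genes of the segment lay mostly below their control level. Their median log2 fold change, FOXC1 KO against control, was -0.28, with quartiles of -0.50 and -0.13, and 68 of the 77 lay below 0. Of all tested genes, 50.1% did. Here a gene was called when its adjusted p was under 0.05 and its change was over 1.3-fold. By that rule 23 of the 77 were called lower, where 8.39% of all 15647 tested genes were, and 1 was called higher, where 7.57% were. Without control replicate 2 or 3, or without FOXC1 KO replicate 1 or 3, 2 were called higher. On adjusted p alone, 34 were lower and 2 higher, beside 14.3% and 15.2% of all tested genes. The 3 libraries labelled FOXC1 KO all lay below the 3 control libraries for 41 segment genes, beside 20.8% of all tested genes, and above them for 2, beside 20.5%. Because the interval was picked on this contrast, nothing is read from these shares. For the counts called in each list below, the shares to compare are the same 8.39% lower and 7.57% higher of all tested genes. Over the whole segment, 88.3% of tested genes lay below 0 and 29.9% were called lower. List counts near those shares are not particular to a list.

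**Figure D1:**
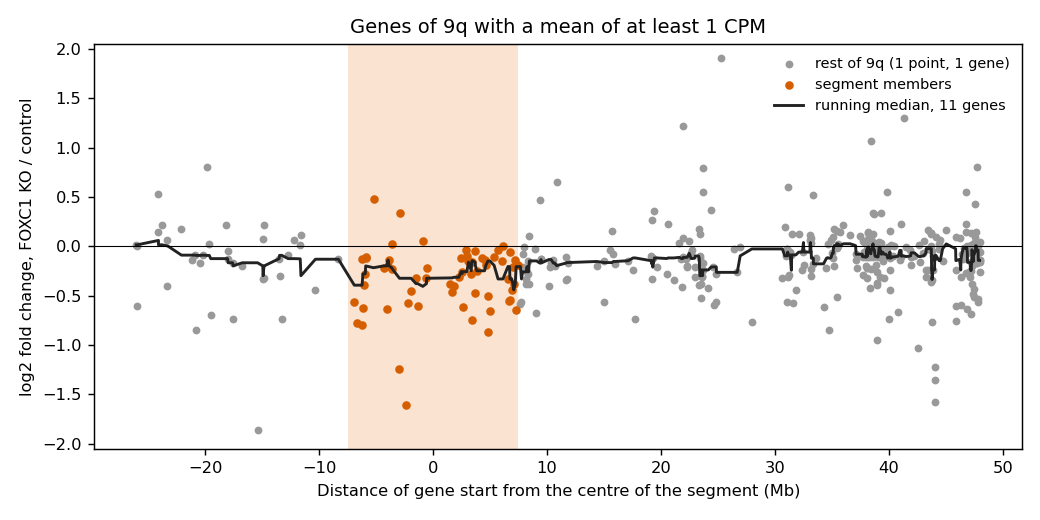
log2 fold change (FOXC1 KO over control, vertical axis) of each 9q gene that averaged 1 CPM or more against the distance of its start from the middle of the segment in Mb (horizontal axis), with segment genes in orange on a shaded band and the other 9q genes in gray. The black line, a running median over 11 genes, runs between -0.44 and -0.14 inside the band and stays mostly below 0 on both sides of it.

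DAPK1, which encodes the calcium/calmodulin-regulated death-associated protein kinase, had the lowest fold change among segment genes at 1 CPM or more. The gene spans chr9:90112143-90323549 on the plus strand. It stood at 46.7, 46.4 and 52.1 CPM in the control libraries and 17.4, 15.8 and 14.6 CPM in the libraries labelled FOXC1 KO, with a log2 fold change of -1.61 ± 0.089 (SE). The gap between the groups was several times the spread within either. A processed pseudogene inside DAPK1 on the same strand, ENSG00000219928, had under 1 CPM and a log2 fold change of 0.048 ± 0.46. GAS1, a surface co-receptor for hedgehog ligands, lies proximal to it at chr9:89559277-89562421 and was weakly expressed, at 3.97, 3.16 and 3.38 CPM against 1.25, 1.55 and 1.57 CPM. Its log2 fold change was -1.24 ± 0.18, and no knockout library reached a control library. Between them by position lies LINC02893, a long RNA averaging under 1 CPM that had the lowest value of all tested segment genes, -1.68 ± 0.34. The processed pseudogene CDC20P1 overlaps it on the opposite strand and lay the other way, at 8.52, 8.08 and 7.75 CPM against 8.92, 11.4 and 10.4 CPM, without overlap between the groups (0.34 ± 0.11). As a copy of CDC20 it may share reads with that gene, which makes its value uncertain. LINC02893 and CDC20P1 were named after their values were seen.

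PTCH1, the hedgehog receptor, did not follow GAS1. It stood at 17.0, 18.1 and 18.9 CPM in the control libraries and 18.5, 17.1 and 17.2 CPM in the libraries labelled FOXC1 KO, and the groups overlapped, with a log2 fold change of -0.038 ± 0.092. Hedgehog genes outside the segment moved in both directions. Of 26 such genes, 18 were tested, 3 were called lower and 4 higher, where 8.39% and 7.57% of all tested genes were. The transcription factor GLI2 was lower by 1.25 ± 0.34 on the log2 scale (log2 fold change -1.25, edgeR adjusted p = 0.00591), at 1.34, 1.72 and 0.59 CPM against 0.435, 0.556 and 0.51 CPM. The ciliary kinesin KIF7 (-0.59 ± 0.11, adjusted p = 0.000175) and the endocytic receptor LRP2 (-0.61 ± 0.15, adjusted p = 0.002) were also called lower. The pathway inhibitor SUFU (0.40 ± 0.11, adjusted p = 0.00616), the ciliary protein EVC (0.41 ± 0.082, adjusted p = 0.000344), the receptor GPR161 (0.40 ± 0.10, adjusted p = 0.00364) and the ligand SHH (1.72 ± 0.43, adjusted p = 0.00294) were called higher. SHH stayed under 1 CPM in every library, and the signal transducer SMO never exceeded 1 read.

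Both lysosomal cathepsins of the segment lay lower. Cathepsin L (CTSL, chr9:90338966-90346384, plus strand) was among the most abundant segment genes, at 300.0, 298.1 and 311.2 CPM against 200.7, 199.7 and 212.8 CPM. Its log2 fold change was -0.57 ± 0.067, with tight libraries in both groups. Cathepsin V (CTSV, chr9:99791959-99918838, minus strand), a close relative of cathepsin L, stood at 23.5, 23.5 and 25.9 CPM against 16.9, 14.1 and 15.7 CPM, a log2 fold change of -0.65 ± 0.094. The genes are similar in sequence, so reads shared between close copies make both values uncertain.

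Metabolic genes lay on the same side with different sizes. FBP1, fructose-1,6-bisphosphatase of gluconeogenesis (chr9:97365415-97402531, minus strand), stood at 16.9, 13.7 and 15.9 CPM against 7.72, 8.57 and 9.02 CPM. Its log2 fold change of -0.87 ± 0.11 was the third lowest among segment genes at 1 CPM or more. The gluconate kinase gene IDNK had 6.69, 6.72 and 5.86 CPM against 4.19, 3.17 and 3.83 CPM, a log2 fold change of -0.80 ± 0.14. SPTLC1, a subunit of serine palmitoyltransferase in sphingolipid synthesis, was lower by less, at 111.4, 112.8 and 121.9 CPM against 102.5, 85.6 and 90.9 CPM (-0.31 ± 0.076). SLC35D2, a nucleotide-sugar transporter of the Golgi, had a log2 fold change of -0.33 ± 0.079. Of the 5 tested genes of membrane lipid and sugar metabolism, 5 lay below 0 and FBP1 and IDNK were called lower; FBP2, the muscle isoform of the FBP1 enzyme, had too few reads.

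Kinases and receptors held the highest value of all tested segment genes and the lowest at a mean of at least 1 CPM. NTRK2, the TrkB neurotrophin receptor (chr9:87283290-87710666, plus strand), was the 1 segment gene called higher, at 7.32, 6.60 and 6.92 CPM in the control libraries and 10.4, 9.33 and 9.31 CPM in the libraries labelled FOXC1 KO. All 3 knockout values lay above all 3 control values, with a log2 fold change of 0.48 ± 0.11. S1PR3, a sphingosine-1-phosphate receptor, overlapped between groups, at 29.9, 26.9 and 26.2 CPM against 30.0, 26.2 and 30.4 CPM. WNK2, a kinase of ion transport control, had a log2 fold change of -0.75 ± 0.19 at a level of 1.52 to 3.07 CPM. Of the 6 tested genes of this list, DAPK1 and WNK2 were called lower and NTRK2 higher, and the median log2 fold change was -0.17. SYK and DIRAS2 had too few reads. The list was drawn loosely, since the tested SHC3 encodes an adaptor and DIRAS2 a small GTPase.

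RNA-binding, translation and RNA turnover genes included the most abundant gene of the segment and had none called in either direction. HNRNPK, the heterogeneous nuclear ribonucleoprotein K gene, stood at 1220, 1164 and 1164 CPM against 1079, 1049 and 1167 CPM, and the groups overlapped through 1 knockout library (-0.11 ± 0.071). IARS1, the cytosolic isoleucyl-tRNA synthetase, had 434.5, 436.0 and 449.4 CPM against 416.9, 396.0 and 402.6 CPM, so the groups did not overlap although the log2 fold change was only -0.12 ± 0.067. FAM120A, an RNA-binding scaffold, overlapped between groups (-0.051 ± 0.068). Of the 8 tested genes of the list 7 lay below 0 with values from -0.38 to 0.021 and a median of -0.17. The list also counts ISCA1, a gene of iron-sulfur cluster assembly. FAM120AOS, which overlaps FAM120A on the opposite strand, had a log2 fold change of -0.47 ± 0.076, and without knowledge of strand in the counting the reads of such pairs cannot be told apart. The same holds for 22 of the 77 tested segment genes, which overlap a tested gene on the other strand.

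Genes of genome maintenance and cell division lay below 0 in 6 of 7 cases, with a median of -0.12. CKS2, a small subunit of cyclin-dependent kinases, stood at 218.8, 239.6 and 220.1 CPM against 180.1, 181.5 and 182.4 CPM, a log2 fold change of -0.32 ± 0.068 without overlap. Per kilobase of exon it was the most abundant tested gene of the segment at 330.8 RPKM, ahead of HNRNPK at 200.1 RPKM. RMI1, a partner of the BLM helicase, overlapped between groups (-0.12 ± 0.085), as did the phosphatase gene CDC14B (-0.061 ± 0.076). The centromere gene CENPP (-0.61 ± 0.11) and the zinc finger gene ZNF367 (-0.55 ± 0.087) were the 2 called lower. Both were named after their values were seen.

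Ubiquitin and trafficking genes lay below 0 in 8 of 8 tested cases, with a median of -0.20. This list was drawn loosely too, and counts the acetyltransferase subunit gene NAA35 and the tubulin-modifying enzyme gene AGTPBP1. UBQLN1, ubiquilin 1 of the proteasome pathway, stood at 297.7, 301.8 and 301.5 CPM against 290.6, 251.7 and 281.3 CPM. The groups did not overlap, with a log2 fold change of -0.13 ± 0.070. GOLM1, a Golgi membrane protein, had 180.0, 178.6 and 184.3 CPM against 167.8, 163.2 and 162.3 CPM, also without overlap and with a similar size of -0.14 ± 0.067. The predicted transporter gene MFSD14B lay at -0.19 ± 0.069. GKAP1, an anchor of cGMP-dependent protein kinase, was called lower at -0.62 ± 0.12, with 8.03, 9.63 and 9.37 CPM against 4.79, 6.39 and 6.25 CPM. The kinesin gene KIF27 was the other called lower.

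Transcription and chromatin genes also lay below 0 in 8 of 8 tested cases, with a median of -0.28. The most abundant, SPIN1, a reader of histone methylation, stood at 264.1, 268.3 and 265.8 CPM against 219.4, 198.5 and 220.4 CPM, a log2 fold change of -0.32 ± 0.068. PHF2, a histone demethylase, had 67.3, 60.7 and 63.1 CPM against 56.9, 51.4 and 52.8 CPM (-0.25 ± 0.076), with no overlap. HABP4, NFIL3 and ZNF782 were called lower. ZNF782 (-0.38 ± 0.13) lost its call without control replicate 2 or without FOXC1 KO replicate 1 or 3, at -0.35 to -0.36, and also after thinning to the smallest library, with low counts left unfiltered and in DESeq2. HABP4, which binds hyaluronan and RNA, stood at 57.2, 59.5 and 57.4 CPM against 39.9, 39.2 and 40.2 CPM (-0.55 ± 0.075). AOPEP, an aminopeptidase gene that carries the miR-23b and miR-27b hairpins in its body, stood apart from that list, with 74.3, 74.8 and 73.6 CPM against 47.4, 46.7 and 47.7 CPM (-0.65 ± 0.073) and little spread in either group.

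The matrix cluster of the segment was nearly silent in J82. OGN, OMD and ASPN, small leucine-rich proteoglycans, had at most 5 reads in any library and were not tested. ECM2, their neighbor, was tested at under 1 CPM in every library, with a log2 fold change of 0.44 ± 0.31 and overlapping groups.

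**Figure D2:**
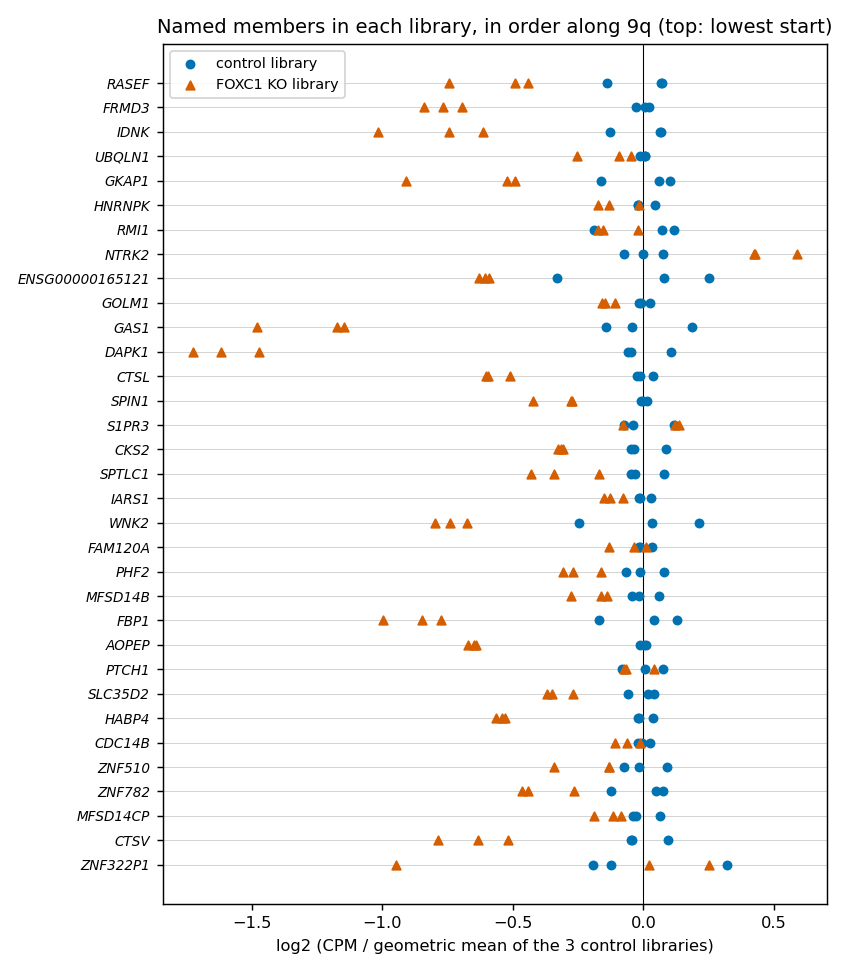
Named segment genes that averaged 1 CPM or more, from the lowest start at the top to the highest at the bottom, with each library's log2 CPM relative to the geometric mean of the 3 control libraries (horizontal axis). Blue circles are control libraries and orange triangles are libraries labelled FOXC1 KO; DAPK1 and GAS1 lie farthest left, NTRK2 lies to the right, and HNRNPK, S1PR3 and PTCH1 overlap between groups.

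Fold changes of segment genes spread about as widely as those of all tested genes. The interquartile range of log2 fold changes over the 77 segment genes was 0.37, close to the 0.37 of all tested genes and wider than the 0.31 of the other 377 tested genes of 9q. The median standard error of a segment gene was 0.098, so differences among members were larger than the error of most single values. The same held for all tested genes, with a median standard error of 0.094. Whether a shift common to all members lay under this usual spread between genes was not tested. Within 0.2 of the segment median lay 57.1% of its genes, against 58.9% for the rest of 9q and 53.7% for all tested genes, each around its own median. Among the 52 segment genes that averaged 5 CPM or more, the median was -0.22, the interquartile range 0.34, and 47 (90.4%) lay below 0.

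At every level most segment genes lay below 0, with medians from -0.41 to -0.21. All 17 genes that averaged 50 CPM or more lay below 0, between -0.65 and -0.051, with a median of -0.22 and an interquartile range of 0.19. The 133 genes of that level in the rest of 9q had a median of -0.098 and an interquartile range of 0.21, and the 4727 in all tested genes had 0.018 and 0.27. From 10 to 50 CPM, 23 of 26 segment genes lay below 0 (median -0.21), and from 1 to 10 CPM, 17 of 19 did (median -0.41). Under 1 CPM, where the errors are large, 11 of 15 did (median -0.31). Across the 77 genes the log2 fold change had a Spearman correlation of 0.18 with mean CPM, 0.20 with exon length and -0.0033 with GC content, given as a description since neighboring genes are not independent. Protein-coding genes had a median of -0.26 and the other types -0.31, with 53 of 59 and 15 of 18 below 0.

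**Figure D3:**
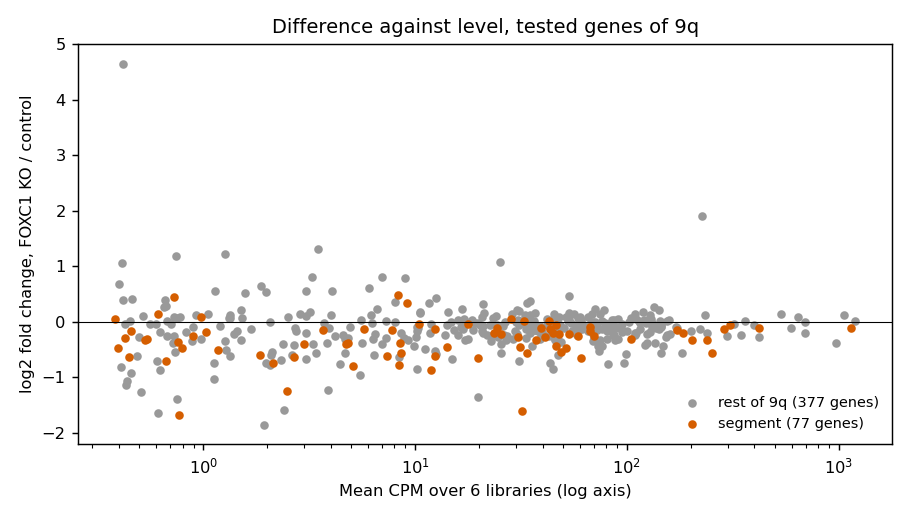
log2 fold change (vertical axis) against mean CPM over the 6 libraries (horizontal log axis) for the 77 tested segment genes in orange and the 377 other tested genes of 9q in gray. Orange points at 50 CPM or more all lie below 0, and their spread widens toward low levels.

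**Figure D4:**
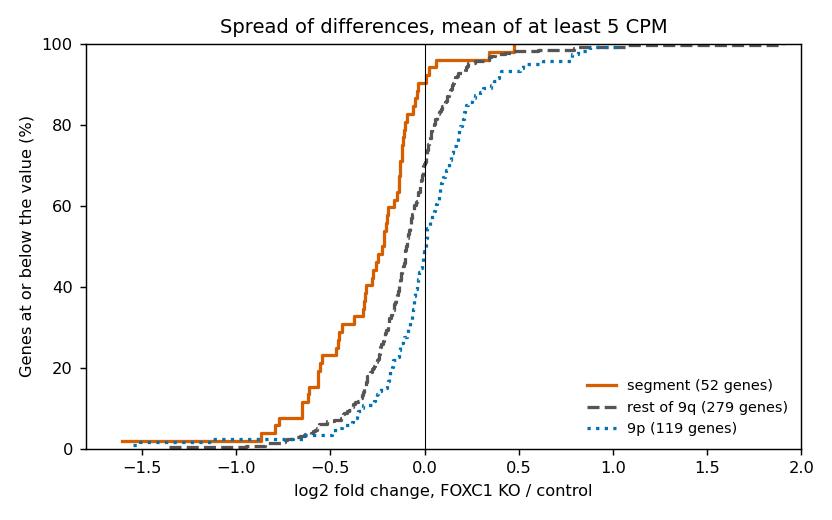
Percentage of genes (vertical axis) at or below each log2 fold change (horizontal axis) for genes that averaged 5 CPM or more: 52 in the segment, 279 in the rest of 9q and 119 on 9p. The 9q curves both lie left of the 9p curve, with 90.4% of segment genes, 70.3% of the rest of 9q and 48.7% of 9p below 0.

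Each library is described next, with no test, since the interval was picked on these same libraries. For each gene the deviations from the common mean sum to 0, so the groups mirror one another by construction. For the 52 genes that averaged 5 CPM or more, each library was set against the mean of all 6. The median deviation was 0.10, 0.17 and 0.13 in the control libraries and -0.12, -0.16 and -0.12 in the libraries labelled FOXC1 KO on the log2 scale. For the 279 such genes of the rest of 9q it was 0.10, 0.030 and 0.031 against -0.055, -0.027 and -0.072, smaller than in the segment except in the first control library. On 9p all 6 medians lay between -0.0037 and 0.025.

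**Figure D5:**
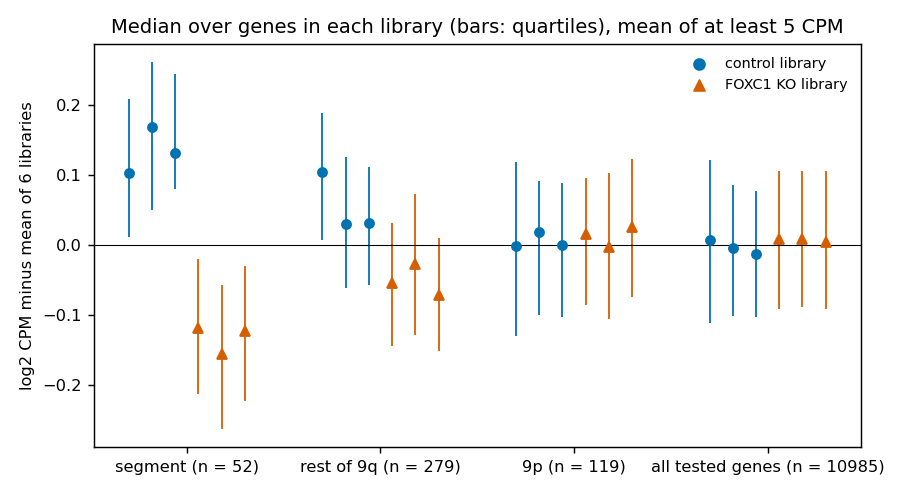
Median over genes of log2 CPM minus the 6-library mean (vertical axis) in each library, with bars from the lower to the upper quartile over genes, for the segment, the rest of 9q, 9p and all tested genes, restricted to a mean of 5 CPM or more. In the segment the control libraries (blue circles) sit at 0.10 to 0.17 and the libraries labelled FOXC1 KO (orange triangles) at -0.16 to -0.12, while 9p and all genes stay near 0.

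The values stepped down at the proximal border, where few genes were tested, and ran on past the distal one. The rest of 9q had a median of -0.10, with 257 of 377 genes below 0, so the segment lay 0.18 below it (difference of medians -0.18, or -0.12 at a mean of at least 5 CPM). On 9p the median was -0.00084, with 86 of 171 below 0. Within the segment the bins of 5 Mb had medians of -0.28, -0.34 and -0.25 going distally. On the proximal side the bins had medians of -0.11 from 70 Mb, -0.25 from 75 Mb and 0.019 from 80 Mb, the last with only 5 genes. On the distal side, from 100 Mb on, successive bins had medians of -0.20, -0.17, -0.12, -0.18, -0.091 and -0.040.

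At 85 Mb the border fell in a stretch poor in expressed genes. The last gene before it, TLE1, a transcriptional co-repressor, lay at -0.13 ± 0.076 (edgeR adjusted p = 0.228) and started at 84.2 Mb, and its relative TLE4 lay at -0.44 ± 0.071 (adjusted p = 1.79e-05). The 3 genes before those, PSAT1, CEP78 and GNAQ, lay between 0.019 and 0.12. The first 5 inside with a mean of at least 1 CPM were RASEF at -0.56, FRMD3 at -0.77, IDNK at -0.80, UBQLN1 at -0.13 and GKAP1 at -0.62. At 100 Mb the values ran on across the border. The last 5 inside with a mean of at least 1 CPM were ZNF510 at -0.20, ZNF782 at -0.38, MFSD14CP at -0.13, CTSV at -0.65 and ZNF322P1 at -0.19. The first tested gene past the border, the weakly expressed long RNA SUGT1P4-STRA6LP, averaged under 1 CPM and lay at -1.25 ± 0.40 (adjusted p = 0.0178). The first 5 outside at 1 CPM or more were the RNA granule gene TDRD7 (-0.58 ± 0.073, adjusted p = 3.9e-07), the actin-capping gene TMOD1 (-0.56 ± 0.14, adjusted p = 0.00214), TSTD2 (-0.21 ± 0.091, adjusted p = 0.0897), the cap-binding gene NCBP1 (-0.073 ± 0.071, adjusted p = 0.479) and the repair gene XPA (-0.0073 ± 0.095, adjusted p = 0.965).

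A running median over 11 consecutive genes at 1 CPM or more went from -0.13 at TLE1 to -0.39 at RASEF, the first segment gene, and stood at -0.20 at ZNF322P1 and at TDRD7 on either side of the distal border. It had also been -0.30 at PSAT1, before the proximal border, but that window reached into the segment as far as IDNK. PSAT1 itself lay at 0.12. Windows were centered on their gene, so those next to a border mixed genes of both sides and do not place the border exactly. It lay below -0.14, a line set at 50% of the segment median, at 61 of 62 positions in the segment, at 99 of 332 in the rest of 9q and at 10 of 138 on 9p. Before the proximal border, a run of 9 genes below that line went from C9orf85 at 74.5 Mb to OSTF1 at 77.7 Mb. Inside the segment a run went from RASEF to ENSG00000165121 (12 genes). The next went from GOLM1 at 88.6 Mb to TGFBR1 at 101.9 Mb (64 genes), past the 100 Mb border. A further run of 15 genes followed from TEX10 at 103.1 Mb to ZNF462 at 109.6 Mb, and one of 21 genes from FAM225A at 115.9 Mb to ASTN2 at 119.2 Mb. Near the end of the arm, a run of 11 genes went from NOTCH1 at 139.4 Mb to EDF1 at 139.8 Mb. Shorter runs on 9q are left out here. In the rest of 9q the lowest running median was -0.34, at ADAMTS13.

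Shifts of this size occurred elsewhere in the genome as well. Windows of 15 Mb, stepped by 5 Mb and holding at least 20 tested genes, numbered 575, and their medians ran from -0.38 to 0.26. The segment itself had -0.28, and 9 windows, the segment included, lay at or below its median. The other 8 were 2 at the end of chromosome 4, 4 on chromosome 18, 1 on chromosome 8 and the window of chromosome 9 that starts at 80 Mb. Many windows overlap, so they are not separate regions. Over whole chromosomes the median ran from -0.15 on chromosome 18 to 0.12 on chromosome 22, with -0.10 on chromosome 9.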

How the data were processed

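Poly-A selected RNA (KAPA mRNA HyperPrep) of 3 control and 3 FOXC1 KO libraries of J82 was sequenced by the authors as paired 75 bp reads, aligned to hg19 with STAR and counted per GENCODE 19 gene with featureCounts. The deposited values are raw read counts. Tool versions, strand setting and treatment of multi-mapped reads are not given in the sources used here. Values of 0 other samples were in the table. Gene starts, types, exon lengths and GC content came from GENCODE 44 lifted to GRCh37, in which 55538 identifiers (96.05%) were found and 15270 of 15647 tested genes had a position.

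Counts were fitted across the whole table with edgeR 4.0.16 in R 4.3.3 (filterByExpr, TMM scaling, robust quasi-likelihood test, group as the only term, Benjamini-Hochberg adjustment). Called means adjusted p under 0.05 and over 1.3-fold, the cutoffs of the study. CPM are TMM-scaled, and RPKM divide them by exon length. SE is the standard error of the log2 fold change. Alternatives were DESeq2 1.42.0, other scalings, count filters and intervals, thinning to the smallest library, removal of a GC trend, a replicate block and each library left out. The procedure was tested on simulated data. Replicate libraries of a group differed by more than sampling noise (chi-square per gene 2.94 to 10.1), so each counted as 1 sample. Deviations of same-numbered libraries from their group means correlated at -0.0402, -0.129 and 0.0733, so the numbers were not taken to pair libraries.

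The members, lists and tests were chosen with earlier results of these data known. Named segment genes were the 10 called with the largest changes at a mean of at least 1 CPM, the 10 most abundant, up to 3 per role list, called genes of opposite sign and the 5 genes on each side of either border. Others, and the 15 Mb windows, were added after values were seen. Promoter and microRNA sequences came from RefSeq tables (GRCh38.p14). Promoters were placed by exact match to GRCh37, and 59 of 77 tested segment genes had one.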

Additional observations from a re-analysis of the deposited data

How the results depend on the processing

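The direction of the segment median and of its difference from the rest of 9q held under every alternative run. All alternatives used the libraries that the interval was picked on. Without a filter on low counts the median was -0.36 and the difference -0.25, with more weakly counted genes in both sets, and 2 genes were called higher. Leaving out 1 library at a time gave medians from -0.304 to -0.274, differences from -0.211 to -0.158, 20 to 23 genes called lower, 1 to 2 called higher, and 86.5 to 94.2% of genes at a mean of at least 5 CPM below 0. That share was 92.3% with library size alone as scaling and with a mean of at least 50 counts, 94% for protein-coding genes and 86% for 80 to 100 Mb. Genes called higher numbered 0 after thinning and at more than 2-fold, 2 without a fold threshold and 5 with the distal border moved out by 5 Mb. Genes called lower numbered 3 at more than 2-fold, 34 without a fold threshold, by construction, and 19 in DESeq2. A replicate block, which assumes a pairing the numbers do not show, gave a median of -0.28, 24 called lower and 1 higher. Among named genes, 2 near 0 changed sign: PTCH1 ranged from -0.0852 to 0.00107 over the fits that left out a library, with the last value without control replicate 3, and ZNF322P1 from -0.478 to 0.126, with the last value without FOXC1 KO replicate 2. For single named genes, 484 comparisons with an alternative kept direction and side of the adjusted p threshold, 15 lost it, mostly for ZNF782 and MFSD14B, and 4 passed it newly. ZNF782 kept its side in 9 of 15 alternatives, and lost it with no filter on low counts (adjusted p = 0.0528) and after thinning (0.0591), beside 3 of the fits that left out a library. ENSG00000165121 and ZNF782 lost theirs in DESeq2, and ENSG00000165121 also without control replicate 2. The causes of the other changes were not tested. Genes under 1 CPM had standard errors too large to show shifts of the segment's size.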
